A study of Mus musculus with 4 samples.

Results

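The response of bone marrow cells to Pam3Cys4 in the presence of an shRNA against lncRNA-COX2 was read from 2 of the study's 4 mRNA libraries, 1 from unstimulated cells and 1 from cells stimulated with 100 nM Pam3Cys4, titled as 5 h. The members were chosen by their titles alone, and all 37681 gene rows of the 2 count tables entered the comparison, of which 18246 had a read in at least 1 of them. All cells came from wild-type C57BL/6 mice and were grown in DMEM holding 20% L929 supernatant, which supplies M-CSF for macrophage growth, and 10% serum of fetal calves. Both libraries carried the shRNA, so their ratio is the stimulation response under the shRNA and not an effect of the shRNA. The other 2 libraries, unstimulated and Pam3Cys4 without shRNA, gave the same ratio for setting beside it. How the shRNA was delivered, how many cells or mice went into a library, and what EV in the titles of the libraries without shRNA stands for is not stated by the labels. The level of the targeted RNA was not analysed here.

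Pam3Cys4 is a synthetic bacterial lipopeptide that is bound at the cell surface by TLR2 paired with TLR1. The pair signals through MyD88 and IRAK kinases to NF-kB and MAP kinases, which switch on genes for cytokines, chemokines and enzymes of host defence. The same signal switches on its own inhibitors, which include inhibitor kappa B proteins, A20 and nucleases that cut cytokine mRNA. Macrophages are the main cells that carry this response in cultures of this kind.

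There was 1 library per group, so no difference was checked against replicates, no p-value is given, and every interval is a 95% interval for counting error only. Levels are CPM (counts scaled to a common total of gene reads, with TMM factors), and they depend on transcript length, so they are compared between libraries and not between genes. The unstimulated library held 65826838 gene reads and the Pam3Cys4 library 59400238. The labels call the cells bone marrow cells. Macrophage markers were read at high levels, with 14 of 15 at 5 CPM or more and a summed level of 19319 CPM unstimulated and 19481 CPM after Pam3Cys4. Among them, the M-CSF receptor gene Csf1r stood at 2207 and 2078 CPM and Cd68 at 2221 and 2367 CPM. Single macrophage markers differed more, with 4 of the 14 at least 2-fold higher after Pam3Cys4 and 2 lower. Their log2 ratios ran from -2.28 (Mertk) to 2.44 (Cd14), and 1 of the 15 had 0 counts in both libraries. The markers of 8 other cell types summed to between 0.48 and 68.3 CPM per type unstimulated and between 1.57 and 51.2 CPM after Pam3Cys4. Cd3e and Col1a1, which mark T cells and fibroblasts, had 0 counts in both libraries. Of the 6 of these markers at 5 CPM or more, Hdc and Lck passed 2-fold, both of them higher. Hdc, the histidine decarboxylase of mast cells that macrophages can also express, stood at 1.14 and 16.5 CPM. Their part in the response was not tested. In bulk RNA, fewer cells of a type and less RNA per cell cannot be told apart.

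Genes at 5 CPM or more in the higher of the 2 libraries were taken as measured, which left 9601. A gene was counted as higher or lower when its ratio reached 2-fold and the interval excluded 1. By this rule 605 genes (6.3%) were higher after Pam3Cys4 and 339 (3.53%) were lower, so that 64.1% of the counted genes were higher. With library totals in place of TMM the split was 494 higher and 466 lower, or 51.5% higher, and the log2 ratio of the median gene moved from 0.02 to -0.12. The upward side was also the deeper one. At 4-fold there were 197 genes higher and 31 lower, at 10-fold 69 and 1, and at 100-fold 15 and 0. The median fold was 2.88 among the higher genes and 2.36 among the lower ones. A gene read in 1 library alone can pass the 5 CPM rule only by differing, so counts over gene groups describe the measured members and not the whole groups.

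The higher genes held 2.97% of all gene reads before stimulation and 10.1% after it, while the share of the lower genes went from 1.85 to 0.71%. Most of the higher genes were already read in unstimulated cells, 435 of 605 at 5 CPM or more, and 23 were under 0.5 CPM. Of the 339 lower genes, 233 kept 5 CPM or more after Pam3Cys4 and 0 went under 0.5 CPM. Some measured transcripts thus went from near absence to a readable level, and none went the other way. Protein-coding genes made up 550 of the higher and 325 of the lower genes. In scaled reads, the transcripts that gained most were Actb, the cytoskeletal actin (16995 to 26522 CPM), and Fth1, the ferritin heavy chain (28268 to 36248 CPM), both with folds under 2. Most was lost by Lrp1, a lipoprotein uptake receptor (5807 to 4028 CPM), and Gpnmb, a glycoprotein of phagocytes (7270 to 5572 CPM). Such rankings between genes count reads, so they depend on the level and length of each transcript.

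**Figure D1:**
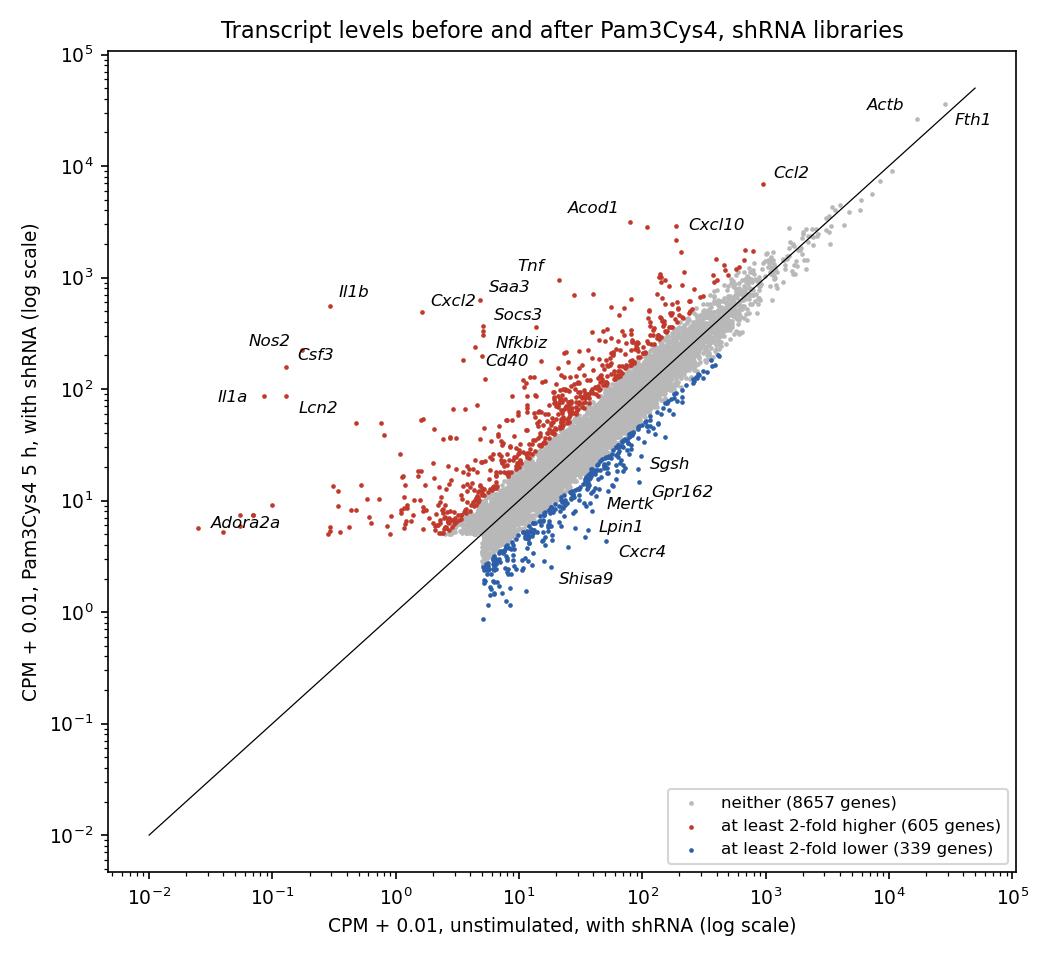
Levels of each measured gene in the 2 shRNA libraries, unstimulated on the horizontal and Pam3Cys4 on the vertical axis, both in CPM plus 0.01 on log scales. The 605 higher genes (red) spread far above the diagonal, among them Il1b at 560 CPM, while the 339 lower genes (blue) lie close under it.

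Some of the largest ratios were those of secreted ligands. Of 28 cytokine genes listed, 16 were measured, 12 of them higher and 0 lower, and the median log2 ratio was 2.06 against 0.02 for all genes. Under other scalings and filters the cytokine median ranged from 1.67 with library totals to 2.50 with a filter of 1 CPM. Il1b, which encodes the fever-inducing cytokine interleukin-1 beta, had 19 counts unstimulated and 30741 after Pam3Cys4, or 0.285 and 560 CPM, a 1964-fold difference (1257 to 3262). Csf3, the growth factor for neutrophils, had 8 and 8727 counts, and its fold of 1324 had an interval from 672 to 3068. These folds rest on unstimulated counts of 19 or fewer, which is why their intervals are wide. Tnf, which encodes tumour necrosis factor, started higher at 21.2 CPM and reached 957 CPM, 45.1-fold higher (42.8 to 47.6). The natural blocker of interleukin-1, Il1rn, was already at 141 CPM and reached 906 CPM, 6.4-fold higher (6.26 to 6.55).

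Smaller cytokine levels showed the same direction. Il27, a subunit of interleukin-27, had 3 and 410 counts, a ratio of 166 (56.4 to 808), and its partner subunit Ebi3 went from 20.7 to 71.8 CPM. Osm and Lif, related cytokines that signal through gp130, were 4.98-fold (4.34 to 5.73) and 18.5-fold (11.5 to 31.8) higher. Csf1, the gene for M-CSF itself, stood at 44.4 and 98.6 CPM, 2.22-fold higher (2.12 to 2.32). Il15, which supports lymphocytes, was just under the 2-fold rule at 1.96-fold (1.65 to 2.34). Only Tnfsf13b, the B cell survival factor BAFF, had a negative log2 ratio among the 16, at 5.4 and 2.84 CPM.

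Several cytokines known for TLR responses were below 5 CPM in both shRNA libraries. Il6 had 0 counts unstimulated and 114 after Pam3Cys4, which is 46.1-fold higher when 0 is set to a floor of 3 counts per library. The interleukin-12 and interleukin-23 subunit genes Il12b and Il23a had 0 counts unstimulated and 32 and 21 after Pam3Cys4. By the same floor they were 12.9-fold and 8.5-fold higher, with intervals that start at 9.93 and 6.32 and have no upper bound. Il10, the inhibitory cytokine, had 7 and 60 counts, and Ifnb1, which encodes interferon beta, 10 and 47. All 5 had more counts after Pam3Cys4, but at levels where 1 library of this depth gives little precision.

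Chemokines, which draw leukocytes to a site, were nearly all higher among the measured members. Of 23 chemokine genes listed, 13 were measured, 12 of them higher and 0 lower, and their median log2 ratio was 3.96. Below 5 CPM in both shRNA libraries, Cxcl9 had 5 and 58 counts and Ccl17 0 and 18. Ppbp, also below 5 CPM, had 7 and 9 counts, and Cxcl5 and Cxcl12 had 0 counts in both. Cxcl2, a neutrophil attractant, went from 109 to 26727 counts, or 1.64 to 487 CPM, 298-fold (247 to 363). Ccl2, which draws monocytes, stood at 946 CPM unstimulated and 6902 CPM after Pam3Cys4, 7.3-fold higher (7.24 to 7.36). Ccl3 and Ccl4, which attract monocytes and T cells, reached 2860 and 715 CPM from 109 and 39.8 CPM. The monocyte attractants Ccl7 and Ccl12 were 40-fold (35.8 to 44.7) and 21.5-fold (18.1 to 25.7) higher. Cxcl10, an attractant of T cells that is also an interferon target, went from 186 to 2888 CPM, 15.5-fold (15.2 to 15.8). Pf4, platelet factor 4, was the measured member without a 2-fold difference, at 16.7 and 16.2 CPM.

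The promoters of a few of these genes are shown because the genes are known targets of NF-kB, interferon-regulated factors or E2F, and the letters let a reader see which short motifs lie near the start site. Sequences are from RefSeq on GRCm38.p6, 250 bases before to 50 after the annotated start, written 5′ to 3′ on the gene's strand, with every match in capitals. Cxcl2 is at chr5:90903649-90903948 on the plus strand, Nfkbia at chr12:55492598-55492897 on the minus strand and Cxcl10 at chr5:92348840-92349139 on the minus strand. The motifs searched on both strands were the kB letters GGANNTTCC, the interferon-stimulated response element (ISRE) GAAANNGAA and the AP-1 letters TGANTCA. In Cxcl2 the capitals mark 1 kB match, 96 bases before the start. In Nfkbia there are kB matches 178 and 29 bases before the start and an ISRE match at 53. In Cxcl10 an ISRE match at 213, a kB match at 158 and an AP-1 match at 74 bases before the start follow one another, with no overlap.
Cxcl2: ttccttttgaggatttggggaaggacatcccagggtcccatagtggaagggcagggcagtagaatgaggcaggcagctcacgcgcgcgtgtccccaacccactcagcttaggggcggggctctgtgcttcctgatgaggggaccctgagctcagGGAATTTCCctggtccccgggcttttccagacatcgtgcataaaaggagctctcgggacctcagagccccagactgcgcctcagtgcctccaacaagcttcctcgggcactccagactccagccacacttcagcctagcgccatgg
Nfkbia: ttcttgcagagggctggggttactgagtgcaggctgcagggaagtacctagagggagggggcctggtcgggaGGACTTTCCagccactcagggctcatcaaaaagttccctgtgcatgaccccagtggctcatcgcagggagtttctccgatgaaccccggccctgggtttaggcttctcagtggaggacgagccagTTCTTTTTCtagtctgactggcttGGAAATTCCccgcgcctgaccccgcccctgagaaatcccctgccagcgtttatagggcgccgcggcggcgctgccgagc
Cxcl10: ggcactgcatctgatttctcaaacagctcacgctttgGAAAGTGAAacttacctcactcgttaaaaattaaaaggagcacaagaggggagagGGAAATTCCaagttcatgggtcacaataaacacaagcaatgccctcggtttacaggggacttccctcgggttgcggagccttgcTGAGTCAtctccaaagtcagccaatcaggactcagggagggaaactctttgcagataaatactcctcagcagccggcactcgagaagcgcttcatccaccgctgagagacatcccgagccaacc

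Over all 32851 windows of the table, 4.26% held a kB match, 8.56% an ISRE match and 7.81% an AP-1 match. Windows were found for 7279 of the 9601 measured genes. Among windows of the higher genes the shares were 7.73, 16 and 10.8% in the same order, and among windows of measured genes counted as neither higher nor lower they were 4.51, 7 and 4.43%. Windows of the lower genes gave 4.75, 4.19 and 5.03%. For these 3 motifs the higher genes had the largest share of the 3 groups. They did not for the cyclic AMP response element (CRE) letters TGACGTCA, with 2.7% of windows of higher genes, 0.559% of lower and 3.33% of neither, and 1.79% over all windows. Nor did they for the E2F letters TTTNGCGC, with 1.26, 2.79 and 2.76% in that order and 1.38% over all windows. Genes with several windows enter more than once. A match is a description of the letters and not a bound site.

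The receptor for the ligand was itself higher. Tlr2 stood at 80.4 CPM unstimulated and 338 CPM after Pam3Cys4, 4.2-fold higher (4.07 to 4.33). Its partner Tlr1 was low in both libraries, 3.6 and 5.5 CPM, 1.53-fold (1.28 to 1.82), and Tlr6, the other partner of TLR2, was 1.21-fold apart (1.04 to 1.4). Cd14, a co-receptor that hands lipopeptides to TLR2, went from 131 to 712 CPM, 5.43-fold (5.3 to 5.56). Tlr3, the receptor for double-stranded RNA, was 4.57-fold higher (4.24 to 4.93), while Tlr4, the lipopolysaccharide receptor, went the other way at 22.2 and 12.9 CPM without reaching 2-fold. Over the 28 measured genes of TLR sensing, 6 were higher and 0 lower, and the median log2 ratio was 0.34. Below 5 CPM in both shRNA libraries, Tlr5 had 148 counts unstimulated and 12 after Pam3Cys4, a ratio of 0.098 (0.050 to 0.177). Ly96, also below 5 CPM, had 63 and 89 counts. The adaptor Myd88 did not reach 2-fold (1.79, 1.75 to 1.83). Irak3, a kinase-like protein that blocks IRAK signalling, was 10.4-fold higher (9.65 to 11.2), against 3.69-fold (3.55 to 3.82) for Irak2, which carries the signal.

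NF-kB genes were higher almost throughout, with 9 of 11 measured members higher, 0 lower and a median log2 ratio of 1.85. The atypical inhibitor Nfkbiz, which also helps to switch on secondary response genes, went from 5.09 to 330 CPM, 64.8-fold (58.2 to 72.4). Nfkbia, the classical inhibitor whose promoter is shown above, went from 137 to 1001 CPM, 7.28-fold (7.12 to 7.45). The subunit precursors Nfkb1 and Nfkb2 were 2.69-fold (2.64 to 2.75) and 3.62-fold (3.49 to 3.75) higher. Among TRAF and ubiquitin regulators, 8 of 16 were higher and 0 lower. Traf1, an adaptor of TNF receptors, went from 3.48 to 182 CPM, and Tnfaip3, which encodes A20, from 15.1 to 179 CPM, 11.9-fold (11.1 to 12.7).

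Other brakes on the response were higher too. Zc3h12a, which encodes the nuclease Regnase-1 that cuts cytokine mRNA, went from 13.8 to 360 CPM, 26.1-fold (24.4 to 27.9), and its relative Zc3h12c was 9.79-fold higher (9.12 to 10.5). Zfp36, whose product marks mRNA with AU-rich elements for decay, was 5.49-fold higher (5.28 to 5.7). These were the 3 higher genes among 14 measured regulators of mRNA stability, of which 0 were lower. Socs3, a feedback inhibitor of gp130 receptors, went from 5.1 to 366 CPM, 71.8-fold (64.5 to 80.1). Of 9 measured MAP kinase phosphatase genes, in a list that also holds the kinase Map3k8, 5 were higher, with Dusp1 at 3.87-fold (3.64 to 4.13) and Dusp16 at 4.35-fold (4.05 to 4.68).

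Among transcription factors, the AP-1, EGR and ATF list had 13 of 22 measured genes higher and 0 lower, at a median log2 ratio of 1.28. With a filter of 1 CPM this median was 1.10. Below 5 CPM in both shRNA libraries, Fosb went from 145 to 45 counts and Batf3 from 196 to 40. Cebpd, a factor that prolongs inflammatory gene expression, was 11.2-fold higher (10.4 to 12.1), and Fos, an early AP-1 subunit, was 2.66-fold higher (2.53 to 2.8) at 5 h. Lineage factors split. Spi1, the PU.1 gene of myeloid cells, went from 572 to 1199 CPM and Ets2 from 71.6 to 533 CPM, whereas Cebpa, a factor of early myeloid development, went from 13.1 to 5.41 CPM, 2.42-fold lower (2.12 to 2.78).

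**Figure D2:**
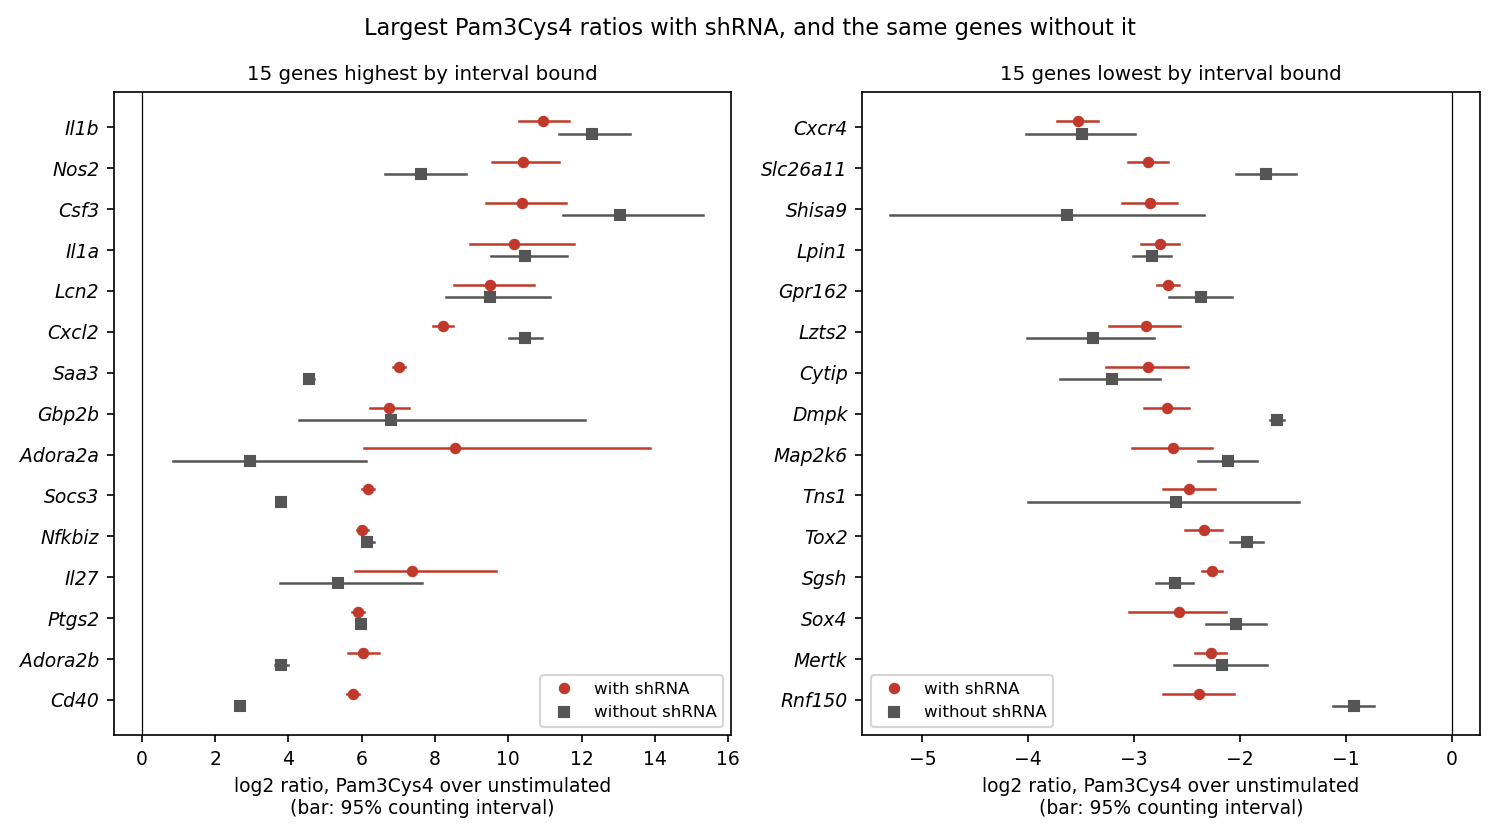
Ratio of Pam3Cys4 to unstimulated CPM in the shRNA libraries for named genes, as a log2 value with its 95% counting interval, and the same ratio in the libraries without shRNA beside it. Il1b has a log2 ratio of 10.94 and Cxcr4 one of -3.53 with shRNA, and intervals are widest where the unstimulated library held few reads.

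Interferon-stimulated genes were higher after Pam3Cys4, from an unstimulated level above that in the libraries without shRNA. Of 41 measured antiviral effector genes, 29 were higher and 1 lower, and log2 ratios had a median of 1.59 and were positive in 40. Their summed level was 4872 CPM unstimulated and 11232 CPM after Pam3Cys4, against 442 and 944 CPM without shRNA. Rsad2, which encodes the antiviral enzyme viperin, went from 140 to 1073 CPM, 7.64-fold (7.47 to 7.81), and Ifit1, which binds foreign RNA ends, from 24.2 to 213 CPM, 8.78-fold (8.34 to 9.26). Isg15, a ubiquitin-like modifier, stood at 44.9 and 185 CPM with shRNA, 4.11-fold (3.95 to 4.29), and at 0.787 and 9.15 CPM without it, 11.6-fold. The unstimulated shRNA library thus already held more Isg15 than the stimulated library without shRNA. Such differences between the pairs cannot be told apart from differences between animals or cultures. The interferon factor Irf7 went from 467 to 1162 CPM, and Stat2, which relays interferon signals, was 3.14-fold higher (3.07 to 3.22).

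ISRE letters are common near the starts of these genes, and 2 of their promoters are shown for that reason. Of the 37 windows found for the measured antiviral genes, 19 or 51.4% held an ISRE match, against 7.43% of the windows of all measured genes. Isg15 lies at chr4:156200769-156201068 on the minus strand, with 3 overlapping ISRE matches that begin 78, 72 and 66 bases before the start site and 1 kB match at 41. Ifit1 lies at chr19:34640639-34640938 on the plus strand, with 3 ISRE matches read on the opposite strand at 109, 103 and 84 bases before the start, of which the first 2 overlap. Capitals mark the matches.
Isg15: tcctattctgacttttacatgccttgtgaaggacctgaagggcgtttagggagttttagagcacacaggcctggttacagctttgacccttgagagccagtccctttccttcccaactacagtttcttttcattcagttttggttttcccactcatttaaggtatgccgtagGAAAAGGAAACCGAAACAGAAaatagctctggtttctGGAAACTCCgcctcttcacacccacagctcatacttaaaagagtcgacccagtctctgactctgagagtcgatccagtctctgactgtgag
Ifit1: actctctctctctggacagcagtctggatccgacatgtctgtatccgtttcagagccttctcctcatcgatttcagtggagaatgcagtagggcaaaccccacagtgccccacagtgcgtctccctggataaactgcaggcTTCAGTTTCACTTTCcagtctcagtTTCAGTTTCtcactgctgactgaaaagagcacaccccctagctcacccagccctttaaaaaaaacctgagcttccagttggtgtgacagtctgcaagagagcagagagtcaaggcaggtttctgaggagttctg

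Guanylate-binding and immunity-related GTPases attack the membranes around microbes. Of 16 listed, 14 were matched and 9 measured, and all 9 were higher, with a median log2 ratio of 2.16. Below 5 CPM in both shRNA libraries, Gbp8 had 40 counts unstimulated and 29 after Pam3Cys4, a ratio of 0.88. Gvin1, Iigp1, Tgtp1 and Tgtp2, also below 5 CPM, had more counts after Pam3Cys4. Gbp2 went from 5.33 to 122 CPM, 22.9-fold (20.6 to 25.5), and Irgm1 from 81 to 222 CPM, 2.74-fold (2.65 to 2.83). Members of this family share long stretches of sequence, and reads placed in several copies were not counted, so their levels are uncertain. Antigen presentation on MHC class I had 6 of 17 measured genes higher and 0 lower, at a median log2 ratio of 0.64. Nlrc5, the activator of class I genes, was 3.73-fold higher (3.55 to 3.93) and the peptide transporter genes Tap1 and Tap2 were 2.93-fold (2.84 to 3.01) and 2.56-fold (2.43 to 2.69) higher. Among co-stimulatory genes, Cd40, the receptor for T cell help, went from 4.38 to 237 CPM, 54.1-fold (48.2 to 60.9). Cd274, which encodes the inhibitory ligand PD-L1, was 5.92-fold higher (5.44 to 6.45), whereas Cd86 differed by 1.52-fold (1.4 to 1.65).

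Effector enzymes showed a few large differences within pathways whose other genes mostly stayed under 2-fold. Nos2, the inducible nitric oxide synthase, had 11 counts unstimulated and 12203 after Pam3Cys4, or 0.165 and 222 CPM, 1347-fold higher (752 to 2698). The transporter genes Slc7a2, which brings in arginine, and Slc7a11, which exchanges cystine for glutamate, were 4.3-fold (4.17 to 4.45) and 5.35-fold (4.94 to 5.79) higher. Gch1, which supplies the synthase's cofactor, was 3.48-fold higher (3.34 to 3.63). Acod1, the enzyme that makes itaconate, went from 79.7 to 3171 CPM, 39.8-fold (38.7 to 40.9), and was the 1 gene of 22 measured in the citric acid cycle list to pass 2-fold, with a list median of -0.11. In glycolysis 3 of 33 measured genes (9.09%) were higher, near the 6.3% over all measured genes. They were the glucose transporter genes Slc2a1 (384 to 914 CPM) and Slc2a6 (199 to 462 CPM) and Pfkfb3 (50.5 to 116 CPM), which makes the activator of phosphofructokinase.

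Ptgs2, the COX-2 gene, went from 5.1 to 304 CPM, and its constitutive relative Ptgs1 from 70.1 to 20.7 CPM, 3.39-fold lower (3.18 to 3.62). Further down the same route, Ptges, the synthase for prostaglandin E2, was 5.4-fold higher (4.23 to 6.97), and Hpgds, which makes prostaglandin D2, was 2.02-fold lower (1.92 to 2.12). Tbxas1, the thromboxane synthase, missed the 2-fold rule at 1.99-fold lower (1.81 to 2.18). The receptor genes Ptger4 and Ptgir were 3.09-fold (2.88 to 3.32) and 3.44-fold (3.24 to 3.65) higher. The list median was 0.05, and it changed sign to -0.08 with library totals and to -0.07 with a filter of 1 or 20 CPM.

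Secreted and cell-bound defence proteins were higher in part. Lcn2, which withholds iron from bacteria, had 8 and 4766 counts, 723-fold (367 to 1676), and Saa3, an acute-phase protein, went from 4.85 to 624 CPM, 129-fold (115 to 144). Slc11a1 and Slc11a2, which move divalent metal ions across membranes, were 3.61-fold (3.47 to 3.75) and 3.71-fold (3.57 to 3.85) higher, whereas Steap3, a ferric reductase, was 2.09-fold lower (2.02 to 2.17). Sod2, the mitochondrial superoxide dismutase, went from 141 to 1013 CPM, and Cybb, the catalytic subunit of the phagocyte oxidase, from 154 to 576 CPM. Complement C3 was 3.18-fold higher (3.12 to 3.25) and C1qa, which starts the classical pathway, 2.64-fold lower (2.49 to 2.8). Among matrix proteases, Mmp13 went from 0.795 to 38.9 CPM and Mmp9 from 24.9 to 173 CPM. The receptor of urokinase, Plaur, was 9.18-fold higher (8.7 to 9.69) while urokinase itself, Plau, was 2.45-fold lower (2.37 to 2.53).

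Receptors through which the cells sense their surroundings were found on both sides. Fpr1, a receptor for bacterial formyl peptides, had 6 and 502 counts, 102-fold (46.3 to 278), and Ccrl2, a non-signalling chemerin receptor, went from 4.59 to 71.5 CPM. Cxcr4, the receptor that retains cells in the marrow, went from 50.6 to 4.37 CPM, 11.6-fold lower (10.2 to 13.3), the gene with the lowest ratio among those measured. Of the adenosine receptors, Adora2b went from 0.75 to 49.2 CPM, and Adora2a from 1 to 309 counts, a ratio of 375 with an interval of 66.8 to 14861. The receptors for fatty acids and for hydroxybutyrate, Gpr84 and Hcar2, were 24.9-fold (23.8 to 26.1) and 22.8-fold (19.8 to 26.5) higher. Lower were Gpr183, the oxysterol receptor, 2.97-fold (2.8 to 3.15), and S1pr1, the sphingosine phosphate receptor, 2.03-fold (1.9 to 2.18). Tnfrsf1b, the second TNF receptor, went from 188 to 2175 CPM, 11.6-fold (11.4 to 11.8).

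Genes that sense danger in the cytosol or set off cell death were higher in 9 of 21 measured cases and lower in 1. Nlrp3, the inflammasome sensor, went from 47.6 to 335 CPM, 7.03-fold (6.77 to 7.3). Nod2 and Nod1, sensors of bacterial cell wall fragments, were 7.47-fold (6.92 to 8.07) and 5.57-fold (5.03 to 6.18) higher, and Casp4, the mouse caspase-11 gene, was 5.78-fold higher (5.19 to 6.46). Fas, a death receptor, went from 1.08 to 25.9 CPM. The exception was Nlrp1b, at 5.24 and 1.91 CPM.

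**Figure D3:**
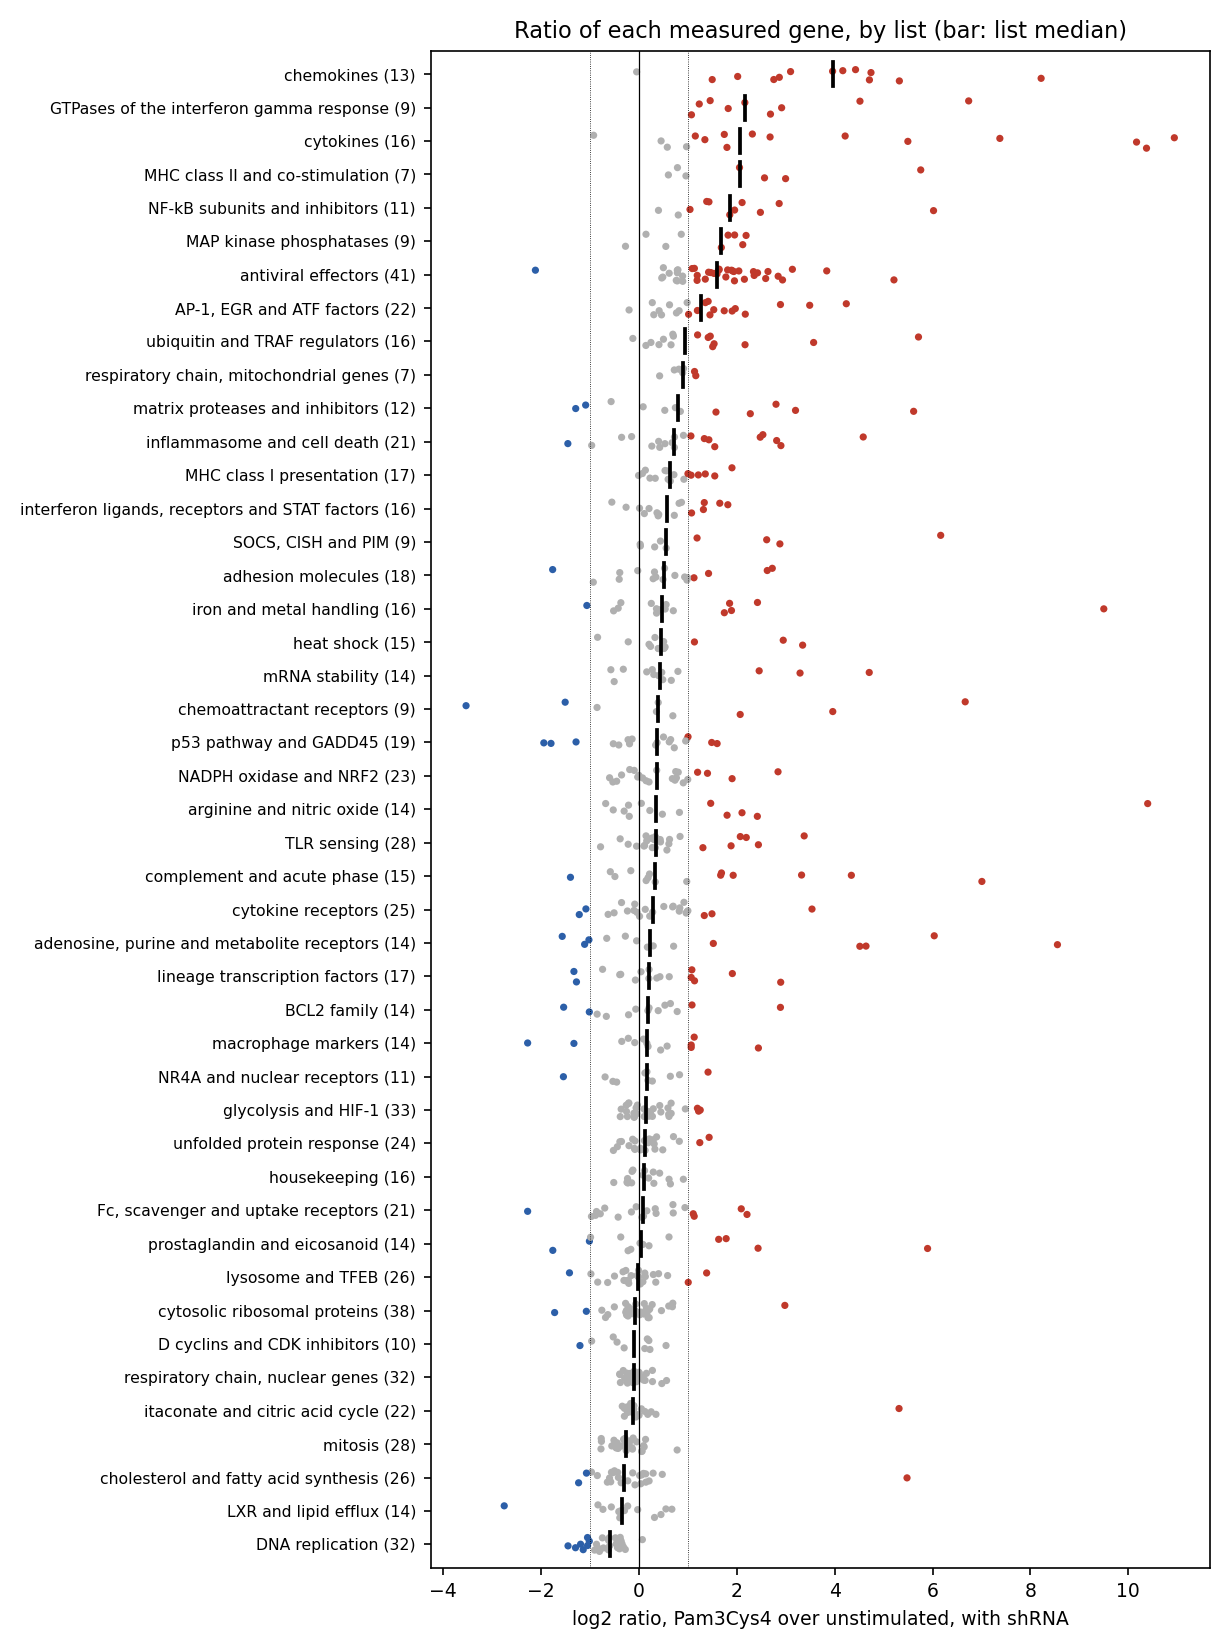
Log2 ratio of Pam3Cys4 to unstimulated CPM with shRNA for the measured members of each gene list, 1 point per gene, with the list median. Chemokine genes have a median of 3.96 and DNA replication genes one of -0.60, while most metabolic lists sit near 0.

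Single genes of uptake, lysosome and lipid handling were lower, while most measured members of their lists were not past 2-fold. Lower genes made up 4.76% of the measured uptake receptors and 3.85% of the lysosome list. The shares were 7.14% for LXR and lipid efflux and 7.69% for sterol and fatty acid synthesis. Over all measured genes 3.53% were lower, so single genes are described here and not a shift of the lists. Of 21 measured Fc, scavenger and uptake receptors, 4 were higher and 1, Mertk, was lower. Their median log2 ratio was 0.09, and -0.04 with library totals. The higher ones were the Fc receptor genes Fcgr1, Fcgr2b (23.7 to 101 CPM) and Fcgr4, and Trem1. Mertk, the receptor by which macrophages take up dying cells, went from 38.8 to 8.02 CPM, 4.84-fold lower (4.37 to 5.37), and the gene of its ligand, Gas6, from 77.2 to 41.7 CPM, which was under 2-fold. Lpin1, a phosphatidate phosphatase, stood at 36.5 and 5.41 CPM, 6.74-fold lower (5.98 to 7.63). It was the 1 lower gene of 14 measured in the LXR and lipid efflux list, which had 0 higher and a median of -0.34. Sgsh, a lysosomal sulfatase, stood at 91.9 and 19.1 CPM, and Tfeb, a master regulator of lysosomal genes, at 52.1 and 19.5 CPM, 2.68-fold lower (2.5 to 2.87). The 26 measured genes of the lysosome list nonetheless had a median log2 ratio of -0.02, with 2 higher and 1 lower. Insig1, which holds back sterol synthesis and is itself a sterol-response gene, went from 334 to 142 CPM, and the elongase gene Elovl6 from 64.1 to 30.5 CPM. Sterol and fatty acid synthesis had a median of -0.30 over 26 measured genes, with 2 lower and Ch25h, the maker of 25-hydroxycholesterol, higher (0.3 to 13.4 CPM). Further genes of large downward ratio were Slc26a11, an anion transporter (34.2 to 4.68 CPM), Gpr162, an orphan receptor (93.8 to 14.7 CPM), Map2k6, a kinase that activates p38 (7.79 to 1.26 CPM), and Sox4 (5.1 to 0.856 CPM).

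Most genes of DNA replication and mitosis had negative log2 ratios that stayed under 2-fold in size. Of 32 DNA replication genes, all of them measured, 31 had negative log2 ratios and 7 were at least 2-fold lower, with a median of -0.60. Tk1, thymidine kinase, went from 122 to 44.5 CPM, 2.73-fold lower (2.61 to 2.86), and E2f1, which drives entry into S phase, from 193 to 78.5 CPM. Uhrf1, which keeps DNA methylation through replication, stood at 366 and 160 CPM, and the helicase gene Mcm4 at 277 and 126 CPM. Mitosis genes had a median of -0.27, with 22 of 28 negative and 0 past 2-fold. D cyclins and CDK inhibitors were split, with 5 of 10 measured genes negative, 0 higher, and 1 lower, the inhibitor gene Cdkn2c (11.3 to 4.92 CPM). Their median of -0.09 became 0.16 with a filter of 20 CPM and -0.30 with a filter of 1 CPM. E2F letters, searched as TTTNGCGC on both strands, were in 11 of 34 windows of the measured replication genes (32.4%), against 2.67% of the windows of all measured genes. The window of Uhrf1 at chr17:56304063-56304362 on the plus strand, 1 of 2 for this gene, is shown as an example with its E2F match, 185 bases before the start, in capitals. The other window, at chr17:56303087-56303386, has no E2F match and 1 kB match, 127 bases before its start.
Uhrf1: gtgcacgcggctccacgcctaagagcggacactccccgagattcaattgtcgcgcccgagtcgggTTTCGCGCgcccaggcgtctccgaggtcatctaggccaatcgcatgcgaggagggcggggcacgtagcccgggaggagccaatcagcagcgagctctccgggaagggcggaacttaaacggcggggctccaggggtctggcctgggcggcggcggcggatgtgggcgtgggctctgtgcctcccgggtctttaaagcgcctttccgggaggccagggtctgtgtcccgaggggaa

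Genes that every cell uses gave a background for these ratios. The 16 housekeeping genes had a median log2 ratio of 0.10, with 0 past 2-fold, and the median was -0.03 with library totals or with a filter of 20 CPM. Nuclear genes of the respiratory chain had a median of -0.11 with 0 of 32 past 2-fold. Mitochondrially encoded genes stood apart from them, with a median of 0.89 over 7 measured genes, and of 0.53 without shRNA. Of the 7, 2 passed 2-fold with shRNA, mt-Co1 (790 to 1736 CPM) and mt-Cytb (308 to 689 CPM). A further 6 of the 13 listed had 0 counts in all 4 libraries, so how this class was counted is uncertain. Ribosomal protein genes had a median of -0.09, although Rps6 went from 2.03 to 16 CPM, and genes of this family have many processed copies that take away uniquely placed reads. The heat shock genes Hspa1a and Hspa1b, a near-identical pair, were 10.2-fold (7.33 to 14.4) and 7.71-fold (6.58 to 9.09) higher, while the median of the heat shock list was 0.46.

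The libraries without shRNA, which share no library with those above, gave a second measure of the stimulation ratio. There 676 of 9555 measured genes (7.07%) were higher and 622 (6.51%) lower. Of the 605 genes higher with shRNA, 509 were measured without it, and 374 of these were higher, 2 lower and 133 neither there. The median log2 ratio of these 509 genes was 1.51 with shRNA and 1.61 without. Of the 339 lower genes, 294 were measured without shRNA, and 216 were lower, 1 higher and 77 neither, with medians of -1.24 and -1.40. The higher and the lower genes had been chosen by their ratio with shRNA, a choice that favours larger values there. The need for 5 CPM or more in a library without shRNA can in turn favour larger values without it. It left out 96 higher and 45 lower genes. Both medians were larger in size without shRNA, and this difference was not tested. The 2 pairs of libraries also differed in reads of Y-linked genes, such as Ddx3y at 13.8 and 20.3 CPM with shRNA and 0.0576 and 0.0792 CPM without. Differences between the pairs therefore cannot be told apart from differences between the animals or cultures they came from.

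The ratio of the 2 stimulation folds, with shRNA over without, could be taken for 9857 genes with 10 counts or more in each library. It was at least 2-fold larger with shRNA for 191 genes (1.94%) and at least 2-fold smaller for 162 (1.64%). Among 14 cytokine genes with this ratio, 2 were larger and 5 smaller, with a median log2 of -0.80. Cxcl2 had a fold of 298 with shRNA and of 1403 without (0.863 to 1211 CPM), a log2 ratio of -2.24 (-2.74 to -1.74). Il1b (-1.33, -2.44 to -0.23), Il1rn (-1.34, -1.40 to -1.27) and Lif (-2.26, -3.21 to -1.32) had smaller folds with shRNA as well. Tnf had the larger fold with shRNA, 45.1 against 15.7, a log2 ratio of 1.52 (1.43 to 1.62).

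Some strongly stimulated genes had the larger fold with shRNA. Cd40 was 54.1-fold higher with shRNA and 6.34-fold without, where it stood at 11.1 and 70.5 CPM. Socs3, at 20.9 and 291 CPM without shRNA, had a fold of 13.9 there against 71.8, and Saa3, at 9.73 and 232 CPM, one of 23.8 against 129. In each of these 3 genes the unstimulated level was lower and the stimulated level higher with shRNA. Nos2, with under 10 counts unstimulated without shRNA and so no interval for this ratio, stood at 0.153 and 30.2 CPM there, 197-fold higher, against 0.165 and 222 CPM with shRNA. Cx3cr1, the fractalkine receptor, was 4.19-fold higher with shRNA (13.4 to 56.4 CPM) and 1.14-fold without (45.6 to 52.1 CPM), so that its stimulated levels were close and its unstimulated levels apart.

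Among 36 antiviral genes with the ratio, 4 had folds at least 2-fold larger with shRNA and 11 smaller, with a median log2 of -0.41. The summed unstimulated level of the antiviral list, given above, was higher with shRNA. Oas3, an oligoadenylate synthetase, was 1.4-fold higher with shRNA (686 to 962 CPM) and 2.57-fold without (17.2 to 44.1 CPM). MHC class I genes had a median log2 of 0.58, with Tap2 at 2.56-fold with shRNA and 1.12-fold without. DNA replication genes had a median of 0.27, with 1 of 32 larger and 0 smaller, and mitosis genes a median of 0.34, with 0 of 28 in either direction. Counted within each pair, 17 of the 32 replication genes were at least 2-fold lower without shRNA and 7 with it, which is no measure of the difference between pairs. Gas6, which was 1.85-fold lower with shRNA, was 4.12-fold lower without it, from 945 to 230 CPM. LXR and lipid efflux genes had a median of -0.42, with Lpin1 close on both sides at 6.74-fold and 7.12-fold lower.

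**Figure D4:**
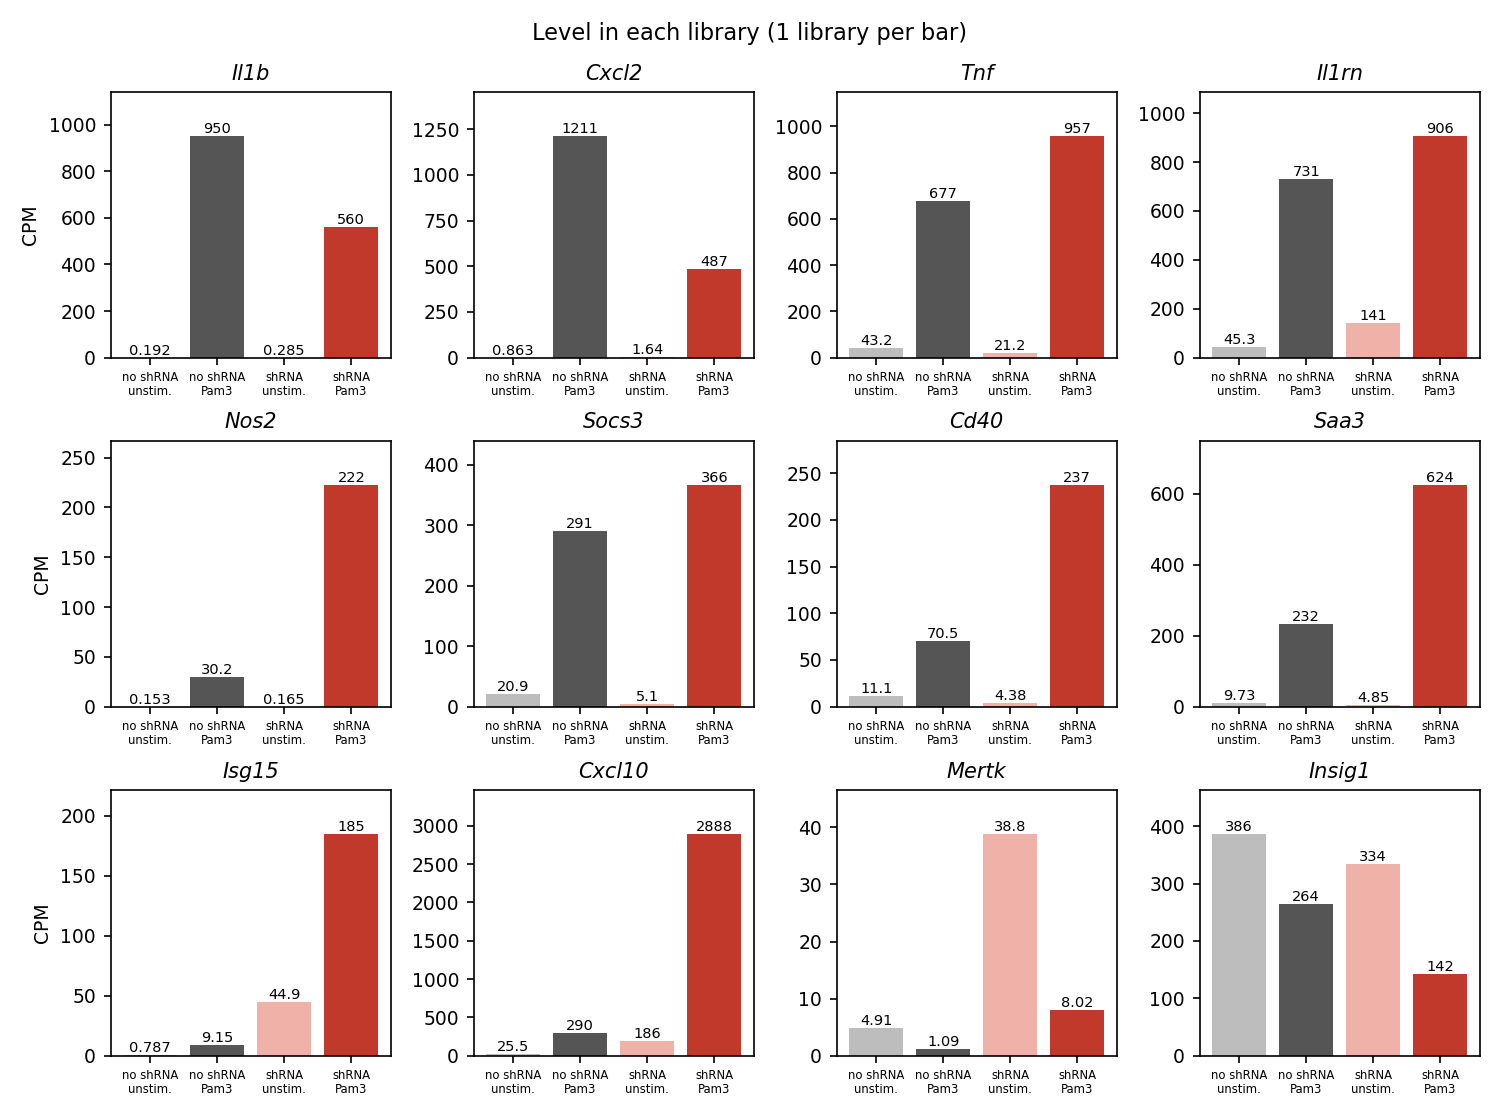
CPM of 12 genes in each of the 4 libraries, 1 bar per library on a linear axis from 0, without shRNA (grey) and with shRNA (red), unstimulated (light) and Pam3Cys4 (dark). Cd40 reaches 237 CPM with shRNA and 70.5 without, while Cxcl2 reaches 487 and 1211 CPM.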

How the data were processed

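The authors deposited 1 table of read counts by gene for each library. Per the labels' protocols, an Illumina mRNA kit was used and reads were 50 bp long. Per the submitters' processing notes, CASAVA 1.8, TopHat and HTSeq were used with NCBIM37. Other tool versions, the annotation and the strandedness of counting were not given in the sources used here, so reads of a gene and of an overlapping or antisense gene cannot be told apart. The 5 summary lines stayed out of library sizes. They held 32.5 and 32.6% of all totals in the 2 shRNA tables, mostly alignments to several places (27.0 and 27.3%), so genes with close copies were undercounted.

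Symbols were matched for 32642 of 37681 gene rows in GENCODE M21, which is on another build than the counts and was used for names and biotypes only. Counts were scaled with TMM over the 4 libraries (edgeR 4.0.16, R 4.3.3), with factors of 1.01 and 0.924 for the shRNA libraries. Ratios and exact conditional binomial 95% intervals were computed in Python 3.11.15 with scipy 1.17.1. The ratio of stimulation folds had a delta-method interval. A 0 count was set to a floor of 3. The ratio script was tested on simulated data. No p-value was computed, since each group is 1 library.

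The comparison, the 53 gene lists with 1083 genes (1074 matched) and the rules were chosen with earlier results of these data known. Named genes were the 15 higher and 15 lower genes with the interval bound farthest from 1, the 4 largest ratios and the 3 highest and 3 lowest CPM differences in each list, a set of core genes of the pathway, the 5 largest and smallest ratios of stimulation folds, and the 5 largest gains and losses in CPM, with fewer printed. Other named genes were chosen after their values were seen. Alternatives were 3 other scalings, 3 other filters, 3 other call rules and a prior count of 2. The targeted RNA and some genes within these ranks were left out.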

Additional observations from a re-analysis of the deposited data

Results flagged for a closer look

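In 3 genes the 2 stimulation ratios passed 2-fold in opposite directions, and this difference was not tested against replicates. Il1rl1, the receptor for interleukin-33, had a log2 ratio of -1.08 with shRNA (5.52 to 2.61 CPM) and of 1.36 without it (17.5 to 44.8 CPM). Maf, a transcription factor of macrophages, had a log2 ratio of 1.91 with shRNA (25.5 to 95.8 CPM) and of -1.33 without it (109 to 43.3 CPM). Parp8, an ADP-ribosyltransferase family member, had a log2 ratio of 1.93 with shRNA (6.84 to 26 CPM) and of -1.19 without it (11.7 to 5.11 CPM).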

How the results depend on the processing

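The counts of genes depended most on the filter and the fold required. With shRNA, the 605 higher genes became 1289 with no filter, 1301 at a ratio of 1.5 and 197 at a ratio of 4. The 339 lower genes became 526 at 1 CPM, 193 at 20 CPM, 892 with no filter, 1053 at 1.5 and 31 at 4. Without shRNA, the 676 higher genes became 1332 with no filter, 1455 at 1.5 and 227 at 4, and the 622 lower genes became 382 at 20 CPM, 1242 with no filter, 1493 at 1.5 and 60 at 4. The 353 genes whose stimulation folds differed by shRNA state became 182 when the interval bound itself had to pass 2-fold. The other settings kept these counts within 1.5 times. Of 1849 other values under alternatives, 0 that were past 2-fold changed sign, and 1491 stayed within their counting interval or, for list medians, within 0.2. Among named genes past 2-fold, 11 of 594 combinations with another scaling lost the call. Of 297 list medians under alternatives, 24 moved by 0.2 or more, that of the cytokines among them. With library totals the list medians of prostaglandin genes (-0.08), Fc and scavenger receptors (-0.04), unfolded protein response genes (-0.01) and housekeeping genes (-0.03) changed sign. So did those of prostaglandin genes (-0.07) at 1 and 20 CPM, D cyclins and CDK inhibitors (0.16) and housekeeping genes (-0.03) at 20 CPM, and endothelial markers (0.71) at 1 CPM. No paired analysis was possible because each group is 1 library and the labels carry no replicate numbers. Spread between cultures is unknown, and folds from unstimulated counts under 20 are imprecise.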

Other observations

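Further genes had large ratios of stimulation folds between the pairs. Cntnap1, a protein of axonal contacts, went from 1.52 to 16.5 CPM with shRNA, 10.9-fold higher (8.83 to 13.5), and from 26.6 to 24.1 CPM without it. Baiap2l1, a membrane-bending adaptor, stood at 0.6 and 0.51 CPM with shRNA and at 0.652 and 9.84 CPM without it. Myo1d, an unconventional myosin, stood at 2.87 and 3.24 CPM with shRNA and at 6.91 and 77.1 CPM without it. Tgm1, a transglutaminase, stood at 0.871 and 0.947 CPM with shRNA and at 0.441 and 6.28 CPM without it. Gadd45a, a stress-response gene, was 1.53-fold higher with shRNA (1.32 to 1.78) and 18.7-fold higher without it, where it went from 1.15 to 21.6 CPM. Cish, an inhibitor of STAT5 signalling, had 24 and 144 counts with shRNA, and went from 0.595 to 60.5 CPM without it.

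Adhesion genes were not described above. Of 18 measured, 4 were higher and 1 lower with shRNA, with a median log2 ratio of 0.51. Itga5, a fibronectin receptor subunit, went from 154 to 949 CPM, 6.15-fold higher (6.02 to 6.28), and Itgal, a subunit of LFA-1, was 6.61-fold higher (6.02 to 7.26). Itga6, a laminin receptor subunit, was 3.4-fold lower (3.17 to 3.64), from 62.7 to 18.5 CPM.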
